A study of Homo sapiens with 4 samples.

Results

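Inhibitory receptors of B cells and the phosphatases that they recruit were measured by RNA sequencing in NUDUL1 cells, a human diffuse large B cell lymphoma line of germinal center type. The set held 9 genes, taken as the rows of the deposited table whose gene name equals a listed name, out of 25066 genes in all. It comprised 6 receptors (CD22, CD72, FCGR2B, SIGLEC10, LAIR1 and CD5) and 3 phosphatases (PTPN6, PTPN11 and INPP5D). The cells came from a dilution-cloned line with doxycycline-inducible Cas9, transduced with the Gα13-coupled thromboxane receptor Tbxa2r, and expressed either a control sgRNA or a GNA13 sgRNA. Cells of both genotypes were given the thromboxane analog U46619 at 10 nM for 24 h, and each genotype label, control or GNA13-deficient, has 2 libraries. There was 1 sgRNA per genotype and no untreated library, so every difference below is between genotypes under U46619. The labels do not say whether the duplicates were separate cultures, and p values then measure only the spread between these libraries, which may be technical.

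The libraries held 29209544 to 31537955 mapped reads. The 8 B cell markers checked summed to 170631 to 201583 reads, whereas the 8 T cell markers summed to 6 and 5 reads (labelled control) and to 1 read in each other library, with CD3D, CD3E, CD2, TRAT1 and IL2RB at 0. GNA13 mRNA (Entrez 10672) was at log2 values of 12.46 and 12.45 (labelled control) and 13.10 and 13.11 (labelled GNA13-deficient), and so was higher, not lower, under the GNA13 sgRNA. Each direction given here rests on the sample labels alone. Of 16945 genes tested by limma with Benjamini-Hochberg adjustment, 29.7% had an adjusted p under 0.05, with 13.1% higher and 16.6% lower under the GNA13-deficient label. Of these calls, 44% were higher in the values as deposited and 69.1% were higher after each library was centred on its median, a scaling that moved the median difference of all genes from -0.02 to 0.18.

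Inhibitory receptors dampen signaling by the B cell antigen receptor. The SRC family kinase LYN phosphorylates immunoreceptor tyrosine-based inhibitory motifs (ITIMs) in their cytoplasmic tails, and the phosphorylated motifs bind the SH2 domains of the tyrosine phosphatases SHP-1 (PTPN6) and SHP-2 (PTPN11) or of the inositol phosphatase SHIP-1 (INPP5D). CD22 and SIGLEC10 bind sialic acid, CD72 is a C-type lectin-like protein that binds the semaphorin SEMA4D, FCGR2B is the inhibitory Fc receptor for IgG and LAIR1 binds collagen. CD5 is a scavenger receptor-like protein of T cells and of a subset of B cells.

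LAIR1 (Entrez 3903, chromosome 19 from 54862991 to 54882165 on the minus strand in GRCh37, the assembly also called hg19) had the largest rise among the 9 genes. Its normalized log2 reads were 10.20 and 10.20 (labelled control) and 11.10 and 11.07 (labelled GNA13-deficient). The replicates nearly coincided, and the genotypes were far apart. The log2 difference was 0.88 (standard error, SE, 0.05, 95% interval 0.75 to 1.02), a 1.84-fold higher level, with an adjusted p of 0.00147 from limma. The reads behind these values were 1159 and 1197 against 2141 and 1999, and 93.8% of all genes tested had a lower difference. Of the windows of 50 bases in its canonical transcript, 3.10% also occur in transcripts of other genes. The rise in LAIR1 was called in all alternatives that kept both libraries of each genotype. T cells and natural killer cells also express LAIR1; the 6 natural killer cell markers checked summed to 36 and 34 reads (labelled control) and to 24 and 10 (labelled GNA13-deficient).

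FCGR2B (Entrez 2213, chromosome 1 from 161632933 to 161648444 on the plus strand) also rose. Its log2 values were 8.04 and 7.94 (labelled control) and 8.48 and 8.76 (labelled GNA13-deficient). No value of either genotype lay within the range of the other, although the replicates labelled GNA13-deficient differed by more than those of any other receptor except CD5. The difference was 0.63 (SE 0.13, 95% interval 0.28 to 0.97, limma adjusted p = 0.0256), a 1.55-fold higher level at 249 to 403 reads. The call was lost without the filter on low values (adjusted p = 0.129) and without the mean-variance trend (adjusted p = 0.0745).

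The level of FCGR2B is uncertain because its gene has near-identical neighbours. In its canonical GENCODE transcript of 2133 bases, 34.3% of all windows of 50 bases, the read length that the labels state, and 495 of 1983 windows of the longer read length in the study's methods also occur in transcripts of FCGR2C or FCGR2A. The stretches shared with FCGR2C cover 838 bases and end at base 860, the first base of exon 6. The sequence beyond it encodes the rest of the cytoplasmic tail, which in this receptor carries the ITIM, and it is shown because FCGR2C and FCGR2A share no stretch of 50 bases that lies wholly within it. The last 50 bases of exon 5 (chr1:161643814-161643863, plus strand, GRCh37) are in lower case, and the 170 coding bases of exons 6 to 8 (chr1:161645047-161645103, chr1:161647118-161647155 and chr1:161647266-161647340) are in capitals.
FCGR2B, end of exon 5 and coding part of exons 6 to 8: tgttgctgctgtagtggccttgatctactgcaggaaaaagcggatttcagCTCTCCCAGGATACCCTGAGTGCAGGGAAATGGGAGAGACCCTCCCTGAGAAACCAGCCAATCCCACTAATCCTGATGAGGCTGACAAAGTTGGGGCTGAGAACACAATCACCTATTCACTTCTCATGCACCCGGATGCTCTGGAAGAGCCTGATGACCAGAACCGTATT
FCGR2C itself was listed at 4 and 3 reads (labelled control) and 5 and 2 (labelled GNA13-deficient). The activating receptor FCGR2A had 76 and 91 reads (labelled control) and 67 and 56 (labelled GNA13-deficient), a difference of -0.37 (SE 0.21, limma adjusted p = 0.262). The rise was thus listed for FCGR2B and not called for either neighbour, and whether the difference itself differs between these genes was not tested.

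SIGLEC10 (Entrez 89790, chromosome 19 from 51913274 to 51921057, minus strand) had log2 values of 8.23 and 8.19 (labelled control) and 8.48 and 8.46 (labelled GNA13-deficient). Both libraries of the latter lay above both of the former. The difference of 0.26 (SE 0.09, 95% interval 0.02 to 0.50) did not pass the threshold in the deposited values (limma adjusted p = 0.0958). It passed after quantile normalization, at 0.44 (adjusted p = 0.0234), and after median centring, at 0.47 (adjusted p = 0.0176). SIGLEC10 shares 10.7% of its windows of 50 bases with other genes, led by SIGLEC11, and none of its windows of the longer read length. Annotated antisense RNAs overlap its exons, and the strand setting of the authors' counting is not given in the sources used here.

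CD72 (Entrez 971, chromosome 9 from 35609979 to 35646807, minus strand) was at 11.76 and 11.80 (labelled control) and at 11.88 and 11.96 (labelled GNA13-deficient). The genotypes did not overlap, by a margin of less than the difference between the replicates labelled GNA13-deficient. The difference of 0.14 (95% interval -0.0056 to 0.29) was not called (limma adjusted p = 0.129), and it was called after median centring, at 0.35 (adjusted p = 0.0198). An exon of TESK1, which was called higher by 0.43 (SE 0.07), overlaps CD72 on the opposite strand; TESK1 was named for this overlap, after its values were seen.

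CD22 (Entrez 933, chromosome 19 from 35810164 to 35838264, plus strand) was at 10.24 and 10.27 (labelled control) and at 10.21 and 10.27 (labelled GNA13-deficient). The genotypes overlapped. The difference was -0.02, with a 95% interval from -0.17 to 0.13 (limma adjusted p = 0.862), and it became 0.19 after median centring (adjusted p = 0.093). Relative to CD22 in the same library, which no constant that scales a whole library can change, LAIR1 was at -0.035 and -0.068 (labelled control) and at 0.89 and 0.80 (labelled GNA13-deficient).

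CD5 (Entrez 921, chromosome 11 from 60869961 to 60895324, plus strand) was at the limit of detection, with 5 and 4 reads (labelled control) and 2 and 0 (labelled GNA13-deficient). Its log2 values were 2.35 and 1.98 against 1.04 and 0. At 9 against 2 summed reads, the ratio of the libraries labelled GNA13-deficient to control was 0.233 with an exact 95% interval from 0.0245 to 1.13, which covers counting error only, and limma's adjusted p was 0.0666. This interval includes a ratio of 1. The fitted log2 difference of -1.64 depended on how such low values were handled, at -0.40 with a pseudocount of 10 and -2.06 with voom, neither of them called.

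The 9 genes are plotted by library next.

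**Figure D1:**
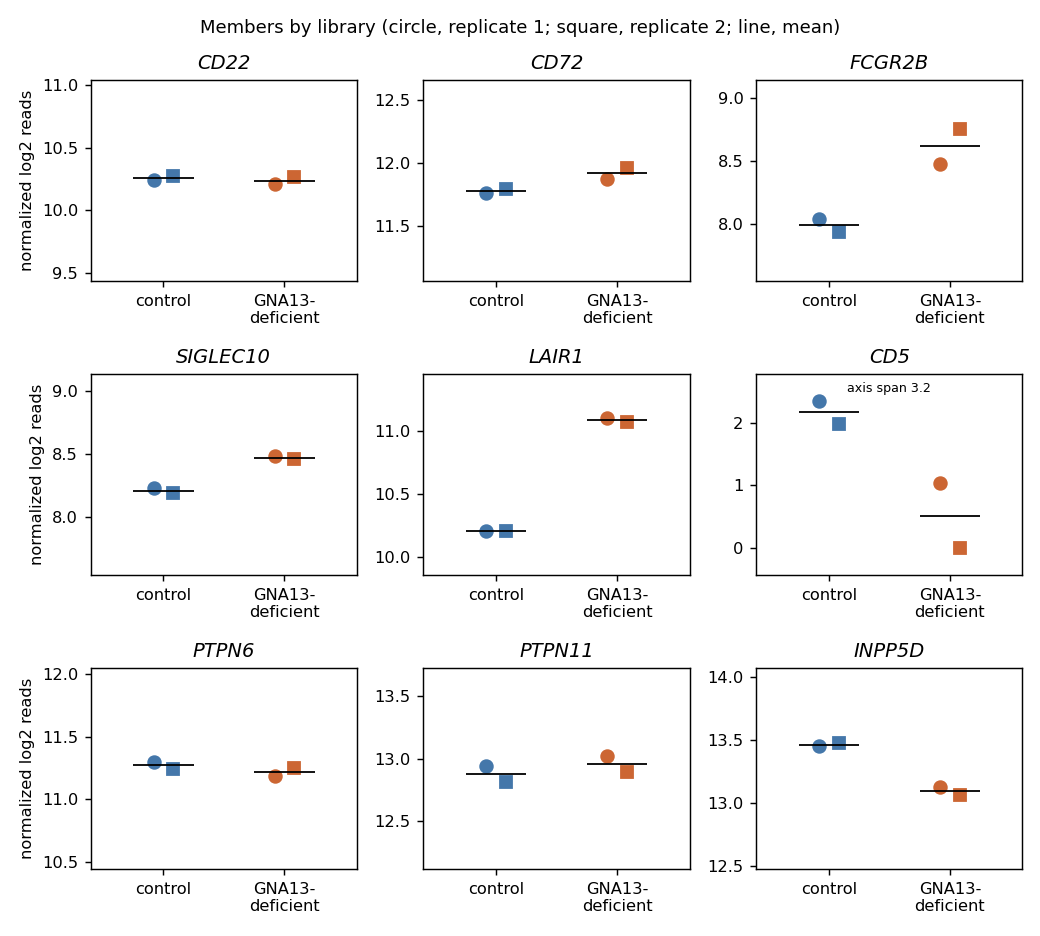
Normalized log2 reads (vertical axes) of the 9 genes in each of the 4 libraries, control in blue and GNA13-deficient in orange, with replicate 1 as a circle, replicate 2 as a square and the genotype mean as a line. All axes but that of CD5 have the same span, so the gap of LAIR1 (0.88), FCGR2B (0.63) and INPP5D (-0.37) can be compared by eye with the overlapping values of CD22, PTPN6 and PTPN11.

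Of the phosphatases, INPP5D fell and the SH2 domain tyrosine phosphatases were not called. INPP5D (Entrez 3635, chromosome 2 from 233924677 to 234116549, plus strand) encodes SHIP-1, which removes a phosphate from the phosphoinositide that PI3K makes and is the main partner of FCGR2B. Its log2 values were 13.45 and 13.48 (labelled control) and 13.13 and 13.06 (labelled GNA13-deficient). All values of the latter lay below the former, by far more than replicates differed. INPP5D fell by 0.37 on the log2 scale (SE 0.06, limma adjusted p = 0.0112), a 1.29-fold lower level at 7962 to 11572 reads. The direction held after median centring, at -0.16, but the call did not (adjusted p = 0.118), and it was also lost without the mean-variance trend (adjusted p = 0.0683).

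PTPN6 (Entrez 5777, chromosome 12 from 7055631 to 7070479, plus strand), which encodes SHP-1, had log2 values of 11.30 and 11.24 (labelled control) and 11.19 and 11.25 (labelled GNA13-deficient). The values overlapped, and the difference was -0.05 with a 95% interval from -0.20 to 0.10 (limma adjusted p = 0.537). After median centring it was 0.16 (adjusted p = 0.12). PTPN11 (Entrez 5781, chromosome 12 from 112856155 to 112947722, plus strand) encodes SHP-2, which also promotes signaling from growth factor receptors to RAS. It was at 12.94 and 12.82 (labelled control) and at 13.02 and 12.89 (labelled GNA13-deficient). These values overlapped too. The difference was 0.08 with a 95% interval from -0.12 to 0.28 (limma adjusted p = 0.499); it was -0.032 after quantile normalization and 0.29, past the threshold (adjusted p = 0.0331), after median centring. Of its windows of 50 bases, 6.97% also occur in transcripts of the pseudogenes of PTPN11.

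Within libraries, INPP5D exceeded PTPN6 by 2.15 and 2.23 on the log2 scale of reads in the libraries labelled control and by 1.94 and 1.81 in the others. Against PTPN11 the excess was 0.51 and 0.66 (labelled control) and 0.11 and 0.17 (labelled GNA13-deficient). Both gaps were thus narrower in both libraries labelled GNA13-deficient, and neither depends on a constant that scales a whole library. FCGR2B lay below INPP5D by a log2 value of -5.41 and -5.54 (labelled control) and by -4.65 and -4.30 (labelled GNA13-deficient), so this gap was narrower too. These gaps are given as a description, with no test.

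Among the 9 genes, 3 were called, LAIR1 and FCGR2B higher and INPP5D lower. That is 33.3%, next to 29.7% of all genes tested, and the 6 genes whose libraries did not overlap between genotypes (66.7%) stand next to 65.3% of all genes. Of the 9 genes, 4, all of them receptors, had both libraries labelled GNA13-deficient above both controls, and 31.3% of all genes did. Of these 4, only LAIR1 and FCGR2B were called. CD5 and INPP5D had both below, as did 34% of all genes. The median difference of the set was 0.08, and that of all genes tested was -0.02. As a set, these genes were therefore called about as often as genes in general. With any 1 library left out, limma called 0 of all genes, the 9 included, at an adjusted p under 0.05, while 5257 to 5600 genes had an unadjusted p under 0.05 and the differences of LAIR1, FCGR2B and INPP5D kept their sign.

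**Figure D2:**
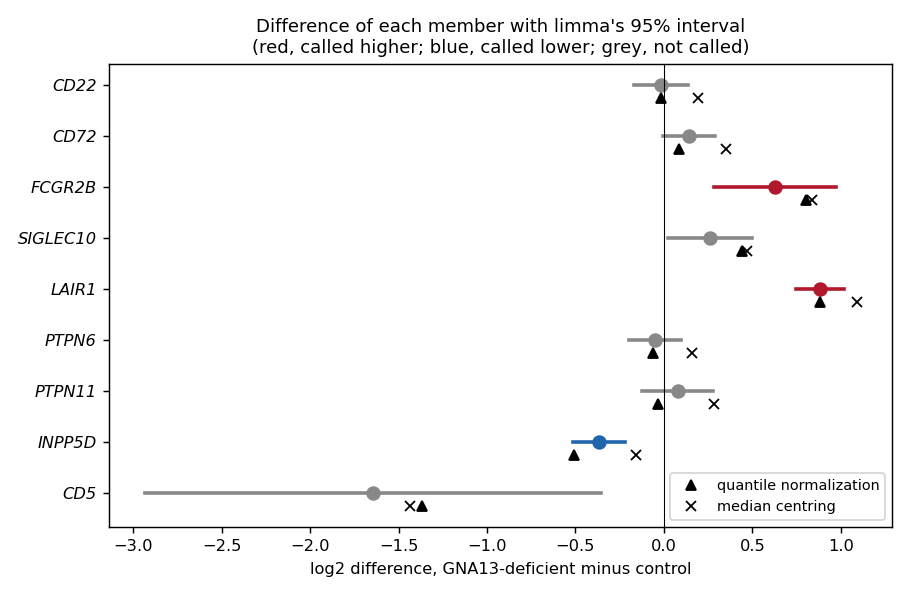
Log2 difference of each gene, GNA13-deficient minus control (horizontal axis), with limma's 95% interval, in red where called higher, blue where called lower and grey where not called; triangles give the difference after quantile normalization and crosses after median centring. LAIR1 (0.88) and FCGR2B (0.63) stay above 0 under both scalings, INPP5D stays below 0, and CD22, PTPN6 and PTPN11 change sign under at least 1 of them.

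Levels of different genes were compared as RPKM, here the recovered reads scaled by the length of the canonical transcript and by the mapped reads of the library. On this scale INPP5D was highest in the libraries labelled control, at 77.2 ± 1.41 (SD, n = 2), next to CD72 at 75.5 ± 1.05, and the order was reversed in the libraries labelled GNA13-deficient, where CD72 was at 80.5 ± 1.62 and INPP5D at 57.9 ± 3.12. PTPN11 followed at 40.9 ± 3.77 in the libraries labelled control and 41.7 ± 3.58 in the others, and PTPN6 at 37.7 ± 2.24 and 35.1 ± 0.356; the ranges of PTPN11 and PTPN6 overlapped in the libraries labelled control and not in the others. CD22 was at 12.3 ± 0.190 in the libraries labelled control, above LAIR1 at 8.05 ± 0.253, and in the libraries labelled GNA13-deficient this order was also reversed, with LAIR1 at 14.3 ± 0.541 and CD22 at 11.7 ± 0.0686. FCGR2B had 3.93 ± 0.322 and 5.88 ± 0.684, SIGLEC10 had 3.02 ± 0.149 and 3.49 ± 0.123, and CD5 had 0.0477 and 0.0106. The order depends on the length used: per kilobase of coding sequence, PTPN11 ranked 1 and LAIR1 ranked 4 over all libraries, instead of 3 and 6. Neither reversal of order holds on that length, on which LAIR1 lay above CD22 in every library and CD72 was not below INPP5D in any. The coding lengths of INPP5D (3479 bases) and LAIR1 (860 bases) are not whole numbers of codons, so the lifted annotation may lack part of these transcripts. Their RPKM may then be too high, and the small lead of INPP5D over CD72 in the libraries labelled control is uncertain.

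**Figure D3:**
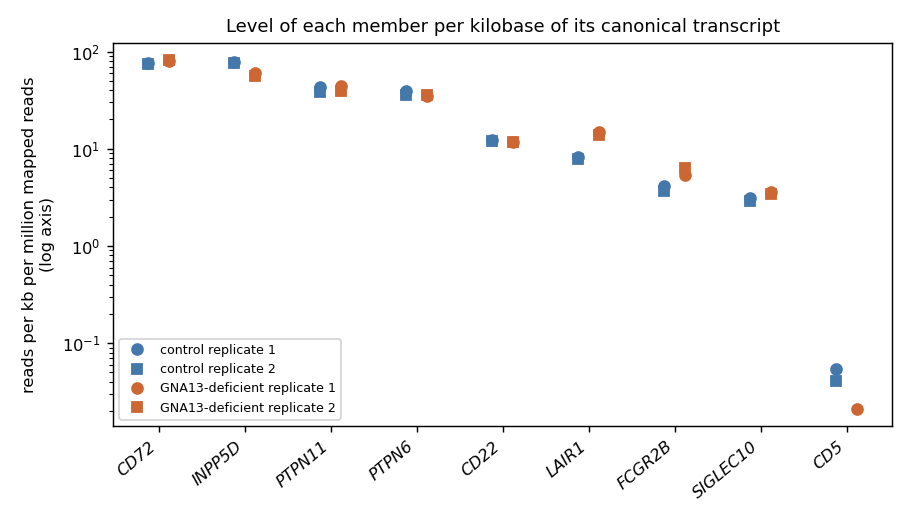
RPKM on the canonical transcript (vertical log axis, reads per kilobase and mapped reads) of each gene in the 4 libraries, control in blue and GNA13-deficient in orange, circles for replicate 1 and squares for replicate 2; CD5 in GNA13-deficient replicate 2 is at 0 and is not drawn. CD72 and INPP5D are the most abundant, and on this length LAIR1 lies below CD22 in the libraries labelled control and above it in the others.

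Ligands of these receptors and the enzymes that make them were compared in a list of 18 genes, of which 16 were tested. ST6GAL1, the sialyltransferase that makes the preferred ligand of CD22, had log2 values of 13.66 and 13.76 (labelled control) and 12.66 and 12.63 (labelled GNA13-deficient). It fell by 1.06 (SE 0.06, limma adjusted p = 0.00142), while CD22 itself was not called. CD24, a ligand of SIGLEC10, fell by 0.97 (SE 0.06), with the caveat that near-identical copies of this gene can share its reads. CD52 and AOC3, also listed as ligands, were not called, at -0.12 (SE 0.09) and -0.78 (SE 0.52). SEMA4D, the ligand of CD72, was at 11.50 and 11.47 (labelled control) and at 12.13 and 12.05 (labelled GNA13-deficient), and rose by 0.61 (SE 0.06, limma adjusted p = 0.00289). HMGB1, which binds CD24, rose by 1.00 (SE 0.08); it too has near-identical pseudogenes. GNE, the first enzyme of sialic acid synthesis, rose by 0.31 (SE 0.08). GNE, SEMA4D, CD52 and AOC3 were named after their values were seen. In all, 3 genes of this list rose, 2 fell and 11 were not called, with a median of -0.11, next to 13.1% higher and 16.6% lower among all genes.

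Among 23 kinases and adaptors that act with the receptors, all of them tested, 10 fell and 2 rose, next to 16.6% and 13.1% of all genes, and the median was -0.43. The adaptor GAB1 fell by 1.15 (SE 0.06, limma adjusted p = 0.00114), from log2 values of 13.00 and 12.98 to 11.89 and 11.78, and its relative GAB2 fell by 1.61 (SE 0.10); both bind SHP-2. BANK1, a B cell scaffold that binds LYN, fell by 1.13 (SE 0.08). LYN itself was at 13.07 and 13.01 (labelled control) and at 13.03 and 13.08 (labelled GNA13-deficient), a difference of 0.02 (SE 0.06, limma adjusted p = 0.883). CSK, the kinase that restrains LYN, fell by 0.48 (SE 0.07). GAB3, a relative of GAB1 and GAB2, rose by 0.23 (SE 0.06), and the adaptors DOK1, DOK3, GRB2 and SHC1 were not called. The RNA of the kinase that starts the inhibitory pathway thus overlapped between genotypes while several adaptors beside it fell and others did not. LYN, CSK, GAB3, DOK1, DOK3, GRB2 and SHC1 were named after their values were seen.

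Of 14 other tyrosine phosphatases of lymphocytes, 13 were tested, 1 rose, 2 fell and 10 were not called, with a median of -0.08; of all genes, 13.1% were called higher and 16.6% lower. PTPRJ (CD148), a receptor phosphatase that acts on SRC family kinases, rose by 0.77 (SE 0.07, limma adjusted p = 0.00298), from 10.51 and 10.64 to 11.38 and 11.29. UBASH3B, which dephosphorylates SYK, fell by 0.62 (SE 0.06). CD45 (PTPRC) had a difference of 0.03 (SE 0.11). A list of 13 other phosphatases of phosphoinositides or of soluble inositol phosphates is called phosphoinositide phosphatases below for short. All were tested, 3 rose, 3 fell and 7 were not called, next to the same 13.1% and 16.6%, with a median of 0.05. INPP5A rose by 0.59 (SE 0.11) and INPP5F by 0.37 (SE 0.09). The largest changes of this list were in genes of lower level. SYNJ2 rose by 2.09 (SE 0.18), from 70 and 88 reads (labelled control) to 359 and 281 (labelled GNA13-deficient). INPP5J had a difference of -3.67 (SE 0.26), OCRL of -3.41 (SE 0.22) and INPP4B of -2.03 (SE 0.50). INPPL1, the closest relative of INPP5D and the gene of SHIP-2, was at 12.21 and 12.19 (labelled control) and at 12.29 and 12.22 (labelled GNA13-deficient), with a difference of 0.05 (SE 0.05, limma adjusted p = 0.527). PTPRC, SYNJ2, INPP5J, OCRL and INPP4B were named after their values were seen.

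The list of 31 other inhibitory receptors and adaptors held few abundant genes. Of 24 tested, 11 fell, 1 rose and 12 were not called, with a median of -0.71, where 16.6% of all genes fell and 13.1% rose; 5 were at 0 in every library. The adaptor SIT1, the most abundant at 2626 to 3327 reads, rose by 0.29 (SE 0.08, limma adjusted p = 0.0482). Those that fell had at most 254 reads in any library. CD300A went from 237 and 254 reads (labelled control) to 11 and 9 (labelled GNA13-deficient), CD33 from 182 and 197 to 3 and 2, and BTLA from 162 and 168 to 41 and 24. CD6, the closest relative of CD5, went from 26 and 20 reads to 3 and 4. These genes were named after their values were seen. CD33 and CD300A are also myeloid genes, and the 8 myeloid markers checked summed to 224 and 246 reads (labelled control) and to 28 and 25 (labelled GNA13-deficient), mostly ITGAM (125 and 145 against 3 and 4) and LYZ (83 and 83 against 11 and 17). CD14 had at most 2 reads, and FCGR3A, S100A8 and S100A9 were at 0. The cells came from a cloned line, and whether any other cells had a part in the falls was not tested. In bulk libraries, fewer cells of a type and less RNA per cell cannot be told apart.

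**Figure D4:**
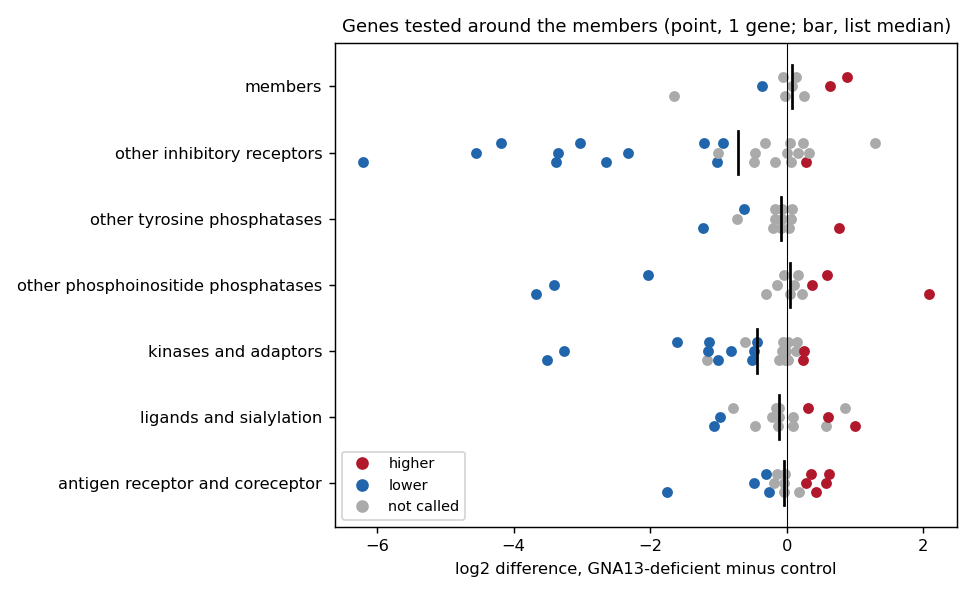
Log2 difference, GNA13-deficient minus control (horizontal axis), of each tested gene in the set of 9 and in the 6 lists around it, in red where called higher, blue where called lower and grey where not called, with the list median as a bar. The other inhibitory receptors (median -0.71) and the kinases and adaptors (median -0.43) have the lowest medians, whereas in the set of 9 LAIR1 and FCGR2B lie to the right and INPP5D and CD5, the latter at 0 to 5 reads, to the left.

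The antigen receptor and the signaling genes listed with it are the targets of this inhibition. Of 15 genes, all tested, 5 rose, 4 fell and 6 were not called, with a median of -0.04, against 13.1% higher and 16.6% lower among all genes. PIK3CD, the catalytic PI3K subunit of lymphocytes and the enzyme whose product SHIP-1 degrades, rose by 0.62 (SE 0.05, limma adjusted p = 0.00254), from 12.41 and 12.36 to 13.00 and 13.01. The kinase PRKCB fell by 0.48 (SE 0.06). PIK3CD was thus higher and INPP5D lower in both libraries labelled GNA13-deficient.

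LAIR1, SIGLEC10 and CD22 lie on chromosome 19, and the genes around LAIR1 and SIGLEC10 were compared with them as a description. Within 500 kb of LAIR1, in the cluster of leukocyte receptor genes, 27 other genes were tested, of which 4 rose and 2 fell, with a median of 0.02 (of all genes, 13.1% rose and 16.6% fell). LAIR2, which encodes a soluble relative of LAIR1, had at most 3 reads. Of 11 genes tested within 500 kb of SIGLEC10, 1 rose and 5 fell, with a median of -1.33, beside the same shares of all genes. Its relative SIGLEC12 there had 19 and 14 reads (labelled control) and 0 and 1 (labelled GNA13-deficient). SIGLEC11, which shares windows with SIGLEC10, had at most 1 read in each library. SIGLEC10 was the Siglec gene with the most reads of those near it, and its own difference was 0.26.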

How the data were processed

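The authors aligned reads of poly(A)-selected stranded libraries to hg19 with STAR, and the submitters' processing notes name HTSeq, with no version; the annotation, the strand setting and the method of normalization are not given in the sources used here. The deposited values are normalized reads per gene on the log2 scale, and a row of total mapped reads, on a linear scale, was used only for depth. Low values step in whole reads divided by a constant per library. Values that stand for at most 400 reads all came out whole within rounding. Reads given behind a value were recovered in this way. Those above 400 were rounded to a whole number, were not checked for wholeness and may be inexact. In control replicate 2, 1 read falls below 0 on the log2 scale and is listed as 0, so a 0 there can stand for 1 read.

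Genes listed above 0 in 2 or more of the 4 libraries (16945 of 25066) were fitted by genotype with limma 3.58.1 in R 4.3.3 (lmFit, then eBayes with trend), without a pseudocount; tests were two-sided and adjusted by the Benjamini-Hochberg method at a threshold of 0.05. Fold changes are on this log2 scale and understate changes of low genes. Values that stand for 0 to 3 reads entered the fit as listed, with no floor applied. Intervals on reads cover counting error only. Positions, lengths and shared windows were taken from GENCODE 44 lifted to GRCh37 with Python 3.11.

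The 9 genes, the lists around them and the markers were chosen with earlier results of these data known. Named genes were the 9 genes, GNA13, near-identical relatives, and from each list the 3 largest differences with an adjusted p under 0.05 and a mean level no lower than that of the median gene tested; others are marked where named. A result that the rule would name is left out here. Of the listed genes absent by symbol, MILR1, THEMIS2 and JCHAIN were matched by Entrez ID. Marker lists not described elsewhere gave these results: of 8 B cell markers 1 rose and 2 fell (log2 difference of MS4A1 -0.57 and of BLK -0.43), of 6 germinal center markers 2 fell (BCL6, -2.49), of 5 plasma cell markers 2 fell (TNFRSF17, -0.59), and of 8 T cell, 6 natural killer cell and 8 myeloid markers 2, 3 and 4 could be tested, of which 1, 0 and 2 fell. The pipeline was also run on simulated data of a fixed spread, with changes planted only in genes that were not low. That run does not bear on genes such as CD5 or on the spread between these duplicates. Alternatives were other filters, pseudocounts of 1 and 10, quantile normalization, median centring, the replicate number as a block, other variance models, limma's voom on recovered reads, and leaving out each library.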

Additional observations from a re-analysis of the deposited data

How the results depend on the processing

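Pseudocounts of 1 and 10, a robust variance prior and voom moved no member across the threshold, although CD5 was at -0.40 with a pseudocount of 10 and at -2.06 with voom. Without the filter on low values, FCGR2B at 0.63 was no longer called, and calls fell to 1 higher among the members, 815 higher and 1184 lower among all genes, 0 higher and 3 lower among other inhibitory receptors, 1 lower among other tyrosine phosphatases, 1 higher among phosphoinositide phosphatases, 1 higher and 5 lower among kinases and adaptors, and 2 higher and 2 lower in the antigen receptor list. A filter at the median level, under which CD5 was not tested, left 1854 genes lower, 0 inhibitory receptors lower, 1 tyrosine phosphatase lower and 0 phosphoinositide phosphatases lower. After quantile normalization SIGLEC10 was called at 0.44, PTPN11 turned to -0.032, and 1 kinase or adaptor and 3 antigen receptor genes were called higher. Median centring turned CD22 to 0.19 and PTPN6 to 0.16, called CD72 at 0.35, SIGLEC10 at 0.47 and PTPN11 at 0.29, and lost INPP5D at -0.16. It called 5 members higher and 0 lower, 4311 genes higher, 3 inhibitory receptors higher, 3 tyrosine phosphatases higher and 1 lower, 6 phosphoinositide phosphatases higher, 4 kinases and adaptors higher and 1 antigen receptor gene lower. Without the mean-variance trend FCGR2B at 0.63 and INPP5D at -0.37 were not called, and calls were 1 higher and 0 lower among the members, 986 higher and 1732 lower among all genes, 0 higher among inhibitory receptors, 1 lower among tyrosine phosphatases, 1 higher among phosphoinositide phosphatases, 0 higher and 6 lower among kinases and adaptors, and 2 higher and 1 lower in the antigen receptor list. Median centring subtracts a constant from each library, so it moved the difference of every gene up by the same amount, for LAIR1 from 0.88 to 1.09. The changes of direction and the added higher calls under that setting follow this shift. The cause of the changes under the other settings was not tested.

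No source pairs the replicate numbers. Deviations of libraries with the same number correlated at 0.453 over 8473 genes, in 2 pairs. With the replicate number as a block, CD72 at 0.14 and CD5 at -1.64 were called, 2 members and 4 tyrosine phosphatases were lower, and 6616 genes were called in all.

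With each library left out in turn, limma called 0 genes in all 4 fits, in which the lone library was assumed to vary like the other genotype. Between 5257 and 5600 genes had an unadjusted p under 0.05, so every count of calls, lists included, was 0. LAIR1 ranged from 0.87 to 0.90, FCGR2B from 0.49 to 0.77, SIGLEC10 from 0.24 to 0.28, CD72 from 0.098 to 0.19, CD22 from -0.047 to 0.012, above 0 without GNA13-deficient replicate 1, CD5 from -2.16 to -1.13, PTPN6 from -0.086 to -0.019, PTPN11 from 0.013 to 0.14, INPP5D from -0.40 to -0.33 and GNA13 from 0.65 to 0.66. CD5, at 0 to 5 reads, was limited by depth.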
